A study of Mus musculus with 68 samples.

Results

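The comparison described here sets mice whose skin papillomas held the most Lgr5 transcript against mice whose papillomas held the least. Log2 values were averaged per mouse, the 37 mice were ranked by the detected Lgr5 probeset, and the 12 highest (high-Lgr5 mice, 20 arrays) were set against the 12 lowest (low-Lgr5 mice, 24 arrays). The 13 mice between them (24 arrays) entered no test, so the comparison used 24 of 37 mice. All 37 were FVBBX mice, in which hybrids of SPRET/Ei and FVB/N were crossed back to FVB/N, painted on the dorsal back with DMBA at 8 to 12 weeks of age and then with TPA for 20 weeks. Strain, carcinogen, promoter and tissue were therefore shared by both ends, which are ends of a measured range and not groups that were treated differently. Each backcross mouse carries its own mixture of alleles, and genotypes were not analysed here. Each of the 68 papillomas was hybridized whole to its own Affymetrix array, with 2 papillomas from 31 mice and 1 from 6 mice. In whole tumors a lower value may mean fewer cells of a type or less RNA per cell, and these cannot be told apart.

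Lgr5 is a receptor for R-spondins, secreted proteins that strengthen Wnt signaling. R-spondin bound to Lgr4, Lgr5 or Lgr6 draws off the ubiquitin ligases Znrf3 and Rnf43, which otherwise remove Frizzled receptors from the cell surface. In mouse skin Lgr5 marks stem cells of the lower bulge and hair germ of the resting follicle and of the lower outer root sheath of the growing one, and Lgr5 is itself a target of the Wnt pathway. A papilloma is a benign outgrowth of epidermis around a core of connective tissue and vessels.

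The mice were chosen by their Lgr5 level, so its values are given as a description with no test. It ran from 6.16 to 7.35 in the high-Lgr5 mice with a median of 6.38, and from 4.81 to 5.42 in the low-Lgr5 mice with a median of 5.21. The mice between ran from 5.48 to 6.11. The means of the ends, 6.57 ± 0.41 and 5.16 ± 0.23 (SD, n = 12 each), lay 2.65-fold apart on the linear scale. The limits of the ends fell in no gap of the distribution, since the lowest high-Lgr5 mouse was at 6.16 beside 6.11 for the next mouse, and the highest low-Lgr5 mouse was at 5.42 beside 5.48. Lgr5 lay above the array's own median in 20 of 20 arrays of high-Lgr5 mice and 13 of 24 arrays of low-Lgr5 mice, against 23 of 24 of the mice between. The low end was thus close to the level at which the array carries little signal. The other Lgr5 probeset of the array was above the median in 0 of 68 arrays, and its means at the ends were 4.04 ± 0.11 and 4.10 ± 0.16 (SD, n = 12 each), so it did not follow the ranking.

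**Figure D1:**
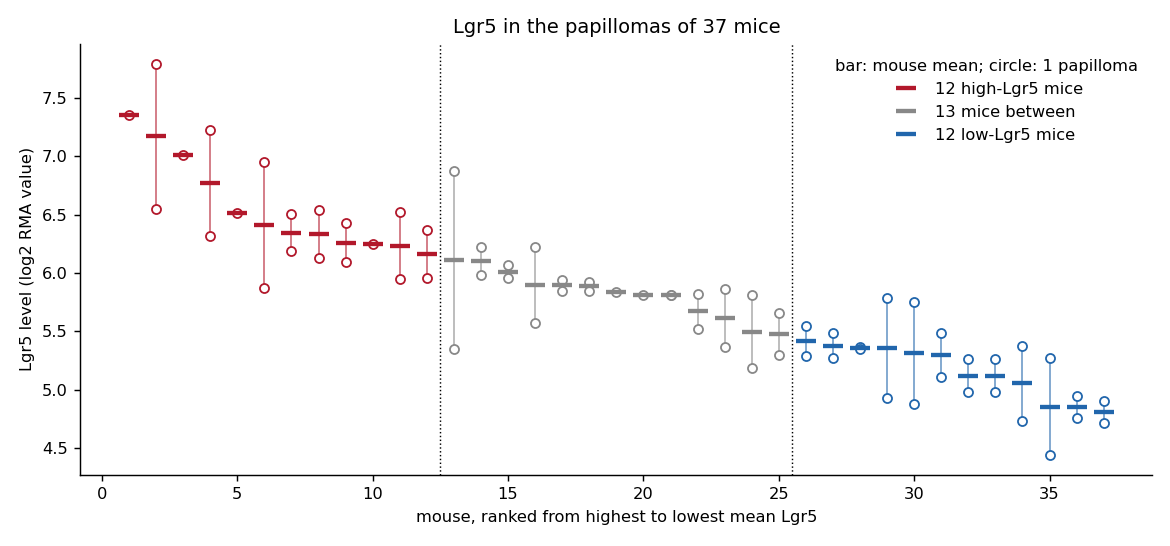
Lgr5 log2 RMA value (vertical axis) of the 37 mice, ranked from highest to lowest mean; bars are mouse means, circles single papillomas, and dotted lines the limits of the ends. High-Lgr5 means run from 6.16 to 7.35 and low-Lgr5 means from 4.81 to 5.42, with papillomas of some mice spread widely.

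Papillomas of a mouse were alike in Lgr5 only in part. Over the 31 mice with 2 papillomas the intraclass correlation was 0.578, and the papillomas differed by a median of 0.36 and by as much as 1.52 on the log2 scale. Ranked by each papilloma alone, 8 mice were among the 10 highest by both and 6 among the 10 lowest by both, while 1 mouse was high by one and low by the other. The high end held 4 mice with a single papilloma and the low end 0 (Fisher's exact test, two-sided, p = 0.0932).

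No difference between the ends was detected in the labelled traits. There were 7 females among the 12 high-Lgr5 mice and 7 among the 12 low-Lgr5 mice, and 6 and 5 agouti coats (Fisher's exact test, two-sided, p = 1.0 for each). Susceptible mice, with the most papillomas at 20 weeks, numbered 4 at the high and 2 at the low end, and resistant mice 3 and 2 (two-sided Fisher's exact p = 0.640 and 1.0). The 7 start cohorts all had mice at both ends (Fisher's exact p = 0.844). High-Lgr5 mice carried 5.50 ± 4.19 papillomas at 20 weeks and low-Lgr5 mice 5.33 ± 4.70 (SD, n = 12 each, two-sided permutation p = 0.967). The first papilloma appeared after 13.5 ± 3.80 weeks in high-Lgr5 mice and 13.1 ± 5.54 weeks in low-Lgr5 mice (SD, n = 11 each, two-sided permutation p = 0.929). Survival was 264 ± 65.04 days in 10 high-Lgr5 mice and 274 ± 23.2 days in 9 low-Lgr5 mice (SD, exact permutation, two-sided, p = 0.682). The 3' to 5' ratio of control probesets, a measure of RNA degradation, averaged 0.35 ± 0.19 in high-Lgr5 and 0.28 ± 0.22 in low-Lgr5 mice on the log2 scale (SD, n = 12 each, permutation p = 0.460). The sex label was contradicted by Xist or by the Y-linked gene Eif2s3y in 8 arrays of 6 mice, and 2 of these mice were at the high end and 3 at the low end.

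Far more probesets were higher than lower in the high-Lgr5 mice, and among the gene lists matrix and fibroblast genes (9 of 19) and striated muscle genes (8 of 23) had the most calls. Of 21580 probesets tested (12604 genes, Lgr5 itself left out), 258 probesets of 215 genes were higher in high-Lgr5 mice and 19 probesets of 18 genes were lower, in limma with Benjamini-Hochberg adjusted p under 0.05. These are 1.20% and 0.0880% of those tested, and 13.7% of those tested had an unadjusted p under 0.05 in either direction. Of the 215 genes, 23 were in the matrix, muscle, endothelial or adipocyte lists by any of their probesets, and most were in no list. The median difference of all tested probesets was -0.01 on the log2 scale, that of the 258 was 0.89 and that of the 19 was -0.37. A log2 difference over 1 was found in 82 of the 258. The counts depended on the mice included: without any 1 mouse they ran from 159 to 547 higher and from 6 to 67 lower, the largest without the low-Lgr5 mouse 14 and the smallest without the low-Lgr5 mouse 25. They were 404 and 35 without the high-Lgr5 mouse 23. The higher count was 159 to 169 without the high-Lgr5 mouse 35 or the low-Lgr5 mouse 10, 13, 15 or 25, and the lower count 6 to 12 without any of those 5, the high-Lgr5 mouse 5, 19, 24, 28, 29 or 31, or the low-Lgr5 mouse 12. Without the 6 mice of doubtful sex label 0 and 0 probesets passed, both with the remaining mice ranked again into 12 and 12 (891 higher and 522 lower at an unadjusted p under 0.05) and with the ends kept (876 and 464, against 1800 and 1156 over all 24 mice).

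Matrix and fibroblast genes were higher in the high-Lgr5 mice. All 19 tested genes of the list had positive differences, with a median of 0.85 against -0.01 for all probesets, and 9 passed (47.4% of the list, beside 1.20% of all probesets). When any 1 mouse was left out 7 to 15 of the 19 passed, the most without the low-Lgr5 mouse 14, and with start cohort as a block 4 passed. Col1a2, a chain of type I collagen, ran from 12.92 to 14.01 in high-Lgr5 mice with a median of 13.68, and from 12.23 to 13.37 in low-Lgr5 mice with a median of 12.75. In 9 of 12 high-Lgr5 mice it was above every low-Lgr5 mouse, and the ends overlapped in the others (difference 0.90 ± 0.14 SE, adjusted p = 0.00368). Col1a1, the other chain, had a median of 13.21 in high-Lgr5 mice (11.99 to 13.79) and 12.01 in low-Lgr5 mice (11.44 to 12.46), a difference of 1.15 ± 0.19 (SE, adjusted p = 0.00368). The remaining list members that passed were Col3a1 (0.90), Col6a3 (0.96), Sparc (0.79), Dcn (1.46), Dpt (1.28), Col5a1 (0.89) and Col6a1 (0.83), all of them collagens or matrix-binding proteins.

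The mean of the list by mouse had a median of 11.08 in high-Lgr5 mice (10.33 to 11.70), 10.68 in the mice between and 10.19 in low-Lgr5 mice (9.69 to 11.48). Of the high-Lgr5 mice 4 lay above all low-Lgr5 mice, and the low-Lgr5 mouse 14, at 11.48, lay near the top of the high end. Within start cohorts the list mean was higher in the high-Lgr5 mice of 7 of 7 cohorts, by 0.14 to 2.01. Every cohort except cohort 1 (3 and 2 mice) had a single mouse at an end. The 2.01 came from cohort 4, with 1 mouse at each end.

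The reference promoter of Col1a2 is shown because this gene follows Lgr5 closely among the collagens (RefSeq, GRCm38.p6, chr6:4505368-4505667, plus strand, 250 bases before to 50 after the start). Capitals mark CCAAT, searched on both strands, where the other strand reads ATTGG.
Col1a2: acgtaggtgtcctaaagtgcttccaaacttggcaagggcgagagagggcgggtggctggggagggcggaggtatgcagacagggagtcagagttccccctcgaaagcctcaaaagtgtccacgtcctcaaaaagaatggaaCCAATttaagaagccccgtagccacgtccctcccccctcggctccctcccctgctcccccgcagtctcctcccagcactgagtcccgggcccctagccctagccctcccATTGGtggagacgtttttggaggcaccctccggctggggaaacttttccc
It held 2 matches. Of the 9 genes of the list that passed, 7 had a promoter in the table and 1 of the 7 held the motif, against 42.1% of the 10127 tested genes with a promoter.

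Several genes outside the list behaved likewise. Mfap4, a protein of elastic microfibrils, ran from 7.92 to 9.78 in high-Lgr5 mice with a median of 8.54, and from 6.41 to 8.37 in low-Lgr5 mice with a median of 6.95. The ends overlapped, with 8 high-Lgr5 mice above all low-Lgr5 mice (difference 1.55 ± 0.23 SE, adjusted p = 0.00202). Abi3bp, another matrix protein, had a median of 7.96 (6.56 to 9.09) in high-Lgr5 and 5.97 (4.85 to 7.28) in low-Lgr5 mice (1.82 ± 0.29 SE, adjusted p = 0.00368). Igfbp5, which binds insulin-like growth factors, had a median of 8.19 (6.91 to 10.58) in high-Lgr5 and 6.21 (5.03 to 7.45) in low-Lgr5 mice (1.86 ± 0.34 SE, adjusted p = 0.00763). Of 16 invasion genes 1 passed, the gelatinase Mmp2 (1.09 ± 0.20 SE, adjusted p = 0.00763).

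Zic1, a zinc-finger transcription factor best known from the nervous system, did not overlap between the ends but lay near the background. It ran from 4.93 to 7.37 in high-Lgr5 mice with a median of 5.43, and from 3.17 to 4.81 in low-Lgr5 mice with a median of 4.02 (difference 1.67). Its level was low, above the array median in 20 arrays, of which 13 were from high-Lgr5, 5 from middle and 2 from low-Lgr5 mice. It therefore passed the filter only through the group in which it was high, and its values are given as a description. Fat4, an atypical cadherin named here after its value was seen, had the smallest p of the comparison (difference 0.88). Its probeset was also near the background, above the median in 19 arrays. How these arrays were split between the ends was not examined, so its value too is given as a description.

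**Figure D2:**
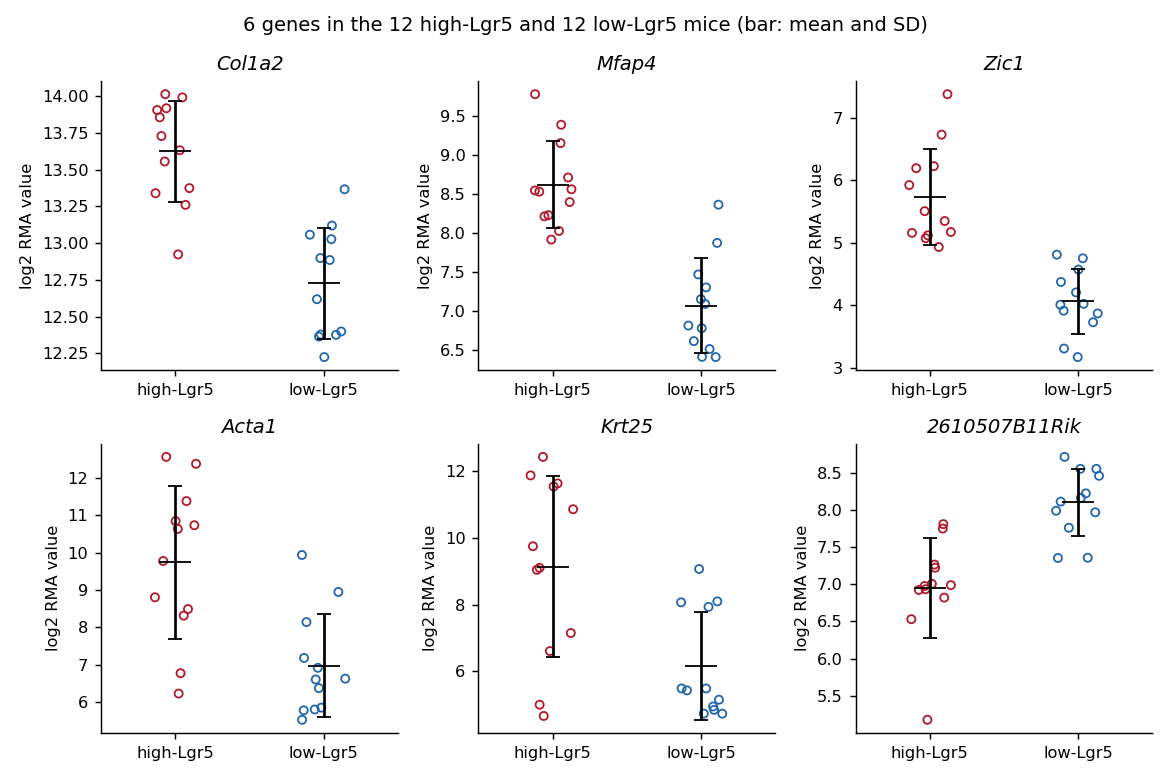
Log2 RMA values of 6 genes in the 12 high-Lgr5 mice (left in each panel) and the 12 low-Lgr5 mice (right); each circle is a mouse and the black bars are mean and SD. Of the 6, only Zic1, which lay near the background, has ends that do not overlap, and Krt25 and Acta1 spread over several log2 units among the high-Lgr5 mice.

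Vessel genes differed less than matrix genes. All 12 tested endothelial genes had positive differences (median 0.51) and 2 passed in limma (16.7% of the list, beside 1.20% of all probesets). The 2 were Tek, the angiopoietin receptor (0.98 ± 0.20 SE, adjusted p = 0.0124), and Esam, an adhesion molecule of endothelium (0.54 ± 0.13 SE, adjusted p = 0.0451). The defining genes Cdh5 and Pecam1 were at 0.72 and 0.62 (adjusted p = 0.0784 and 0.222). The list mean ran from 7.04 to 8.24 in high-Lgr5 mice and from 6.74 to 7.72 in low-Lgr5 mice.

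Genes of fast striated muscle reached high levels in a part of the high-Lgr5 mice. Rodent skin carries a sheet of such muscle, the panniculus carnosus, beneath the dermis. Of 23 tested muscle genes all 23 had positive differences (median 1.48) and 8 passed (34.8% of the list, beside 1.20% of all probesets). The list mean had a median of 4.82 in low-Lgr5 mice, below the array medians of 5.18 to 5.28. Some of the 23 may therefore have passed the filter mainly through high-Lgr5 arrays, and this split was not examined. With probesets above the median in at least 34 of 68 arrays, 11 muscle genes remained. All 11 had positive differences (median 1.59) and 5 passed. Without a filter 3 of 23 passed. Acta1, skeletal alpha-actin, ran from 6.23 to 12.56 in high-Lgr5 mice with a median of 10.20, and from 5.53 to 9.93 in low-Lgr5 mice with a median of 6.62 (2.76 ± 0.67 SE, adjusted p = 0.0362). Only 6 high-Lgr5 mice lay above every low-Lgr5 mouse, and the others fell within the range of the low end. Myh1, a fast myosin heavy chain, had a median of 8.74 (3.44 to 10.85) in high-Lgr5 and 3.47 (2.99 to 8.56) in low-Lgr5 mice (3.62 ± 0.85 SE, adjusted p = 0.0291). The other 6 of the 8 were Tnnc2 (2.62), Myl1 (2.55), Tnnt3 (2.27), Ckm (1.67), Mylpf (1.57) and Actn2 (1.21). They encode troponins, myosin light chains, creatine kinase and alpha-actinin. Car3, a carbonic anhydrase abundant in muscle and fat, was outside the list and had the largest difference of the comparison, with a median of 10.91 (7.54 to 12.81) in high-Lgr5 and 6.80 (3.90 to 10.68) in low-Lgr5 mice (3.63 ± 0.74 SE, adjusted p = 0.0130).

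The mean of the muscle list by mouse ran from 4.74 to 8.85 in high-Lgr5 mice with a median of 6.69, and from 4.65 to 6.41 in low-Lgr5 mice with a median of 4.82, with 5.41 as the median of the mice between. It was higher in the high-Lgr5 mice of 6 of 7 start cohorts, most of which had a single mouse at an end. With start cohort as a block in limma 0 of 23 muscle genes passed (adjusted p = 0.0904 for Acta1, and 0.0552 for Car3). The number of muscle genes that passed rested on single mice, at 1 to 18 of 23 when any 1 mouse was left out. With the muscle list mean as a covariate 0 probesets passed in either direction (669 and 522 at an unadjusted p under 0.05), and the median difference of the matrix list was 0.68. With the fibroblast list mean as a covariate, an alternative chosen after seeing the data, 0 probesets passed as well (727 and 1013 at an unadjusted p under 0.05), and the median of the muscle list was 0.93.

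The promoter of Acta1 is shown for the muscle genes (RefSeq, GRCm38.p6, chr8:123894726-123895025, minus strand, same window). Capitals mark a CArG box, the element bound by serum response factor, searched on both strands.
Acta1: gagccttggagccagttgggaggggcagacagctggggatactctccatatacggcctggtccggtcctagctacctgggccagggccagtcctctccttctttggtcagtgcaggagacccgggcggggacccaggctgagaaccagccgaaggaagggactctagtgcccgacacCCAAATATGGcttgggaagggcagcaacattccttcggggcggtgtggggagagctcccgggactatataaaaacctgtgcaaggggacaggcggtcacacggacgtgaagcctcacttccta
Of the 8 muscle genes that passed, 7 had a promoter in the table and Acta1 was the 1 that held the box, beside 1.68% of the 10127 tested genes with a promoter. A match is a run of letters, and binding was not measured.

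Some genes of the fat and lipid lists passed, and others of the same lists did not. Lpl, the lipase that frees fatty acids from lipoproteins, ran from 8.60 to 12.04 in high-Lgr5 mice with a median of 10.52, and from 6.599 to 10.22 in low-Lgr5 mice with a median of 8.09 (2.08 ± 0.40 SE, adjusted p = 0.00883). It was the 1 gene of 8 in the adipocyte list to pass. Adipoq, the defining adipocyte hormone, differed by 2.26 ± 0.69 (SE, adjusted p = 0.103), and Fabp4 by -0.01. Of 14 genes of sebaceous glands and lipid synthesis 3 passed in limma (21.4% of the list, beside 1.20% of all probesets). These were the elongase Elovl6 (1.15), the desaturase Scd1 (1.36) and the fatty acyl reductase Far2 (1.86). Fasn and Acaca, which make the fatty acid chain, stood at 0.15 and -0.11 (adjusted p = 0.627 and 0.663).

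**Figure D3:**
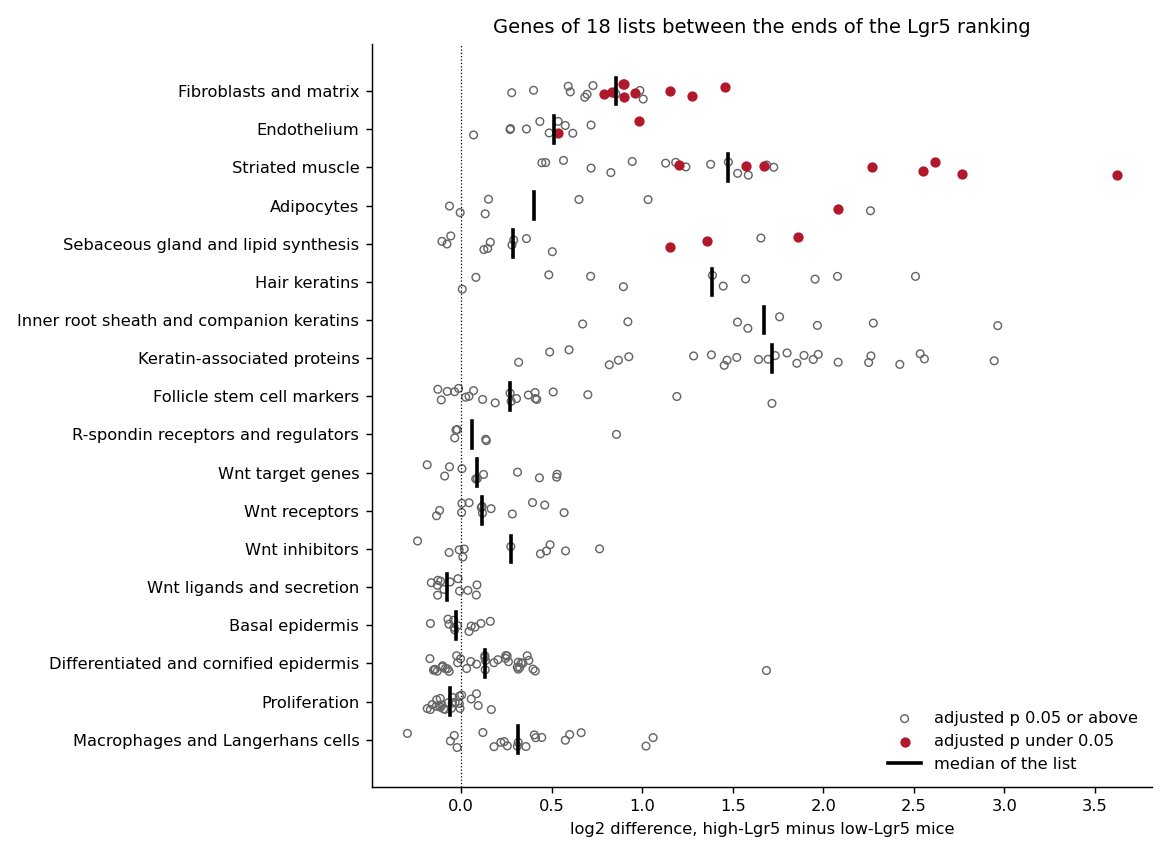
Log2 difference (horizontal axis, high-Lgr5 minus low-Lgr5 mice) of each tested gene in 18 lists; filled circles have an adjusted p under 0.05, open circles do not, and black bars are list medians. Matrix and muscle genes lie right of 0 throughout (medians 0.85 and 1.48), hair genes also but with 0 filled circles, and basal and proliferation genes lie around 0. The Wnt lists have 0 filled circles and medians from -0.08 (ligands) to 0.27 (inhibitors).

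Hair shaft and inner root sheath genes had large positive differences, and none passed. The 3 lists together held 45 tested genes (11 hair keratins, 8 keratins of the inner root sheath and companion layer, 26 keratin-associated proteins). Their differences ran from 0.01 to 2.96 with a median of 1.58, and 0 of 45 passed in limma (smallest adjusted p 0.0688). An unadjusted p under 0.05 was found for 41, beside 8.34% of all probesets that were higher at this level. With probesets above the median in at least 34 of 68 arrays, 7 hair keratins, 6 root sheath keratins and 7 keratin-associated proteins remained. All of these had positive differences (medians 0.715, 1.78 and 0.82) and 0 passed. Some of the 45 may have passed the main filter mainly through high-Lgr5 arrays, and this split was not examined. Krt25, an inner root sheath keratin, ran from 4.67 to 12.41 in high-Lgr5 mice with a median of 9.42, and from 4.74 to 9.06 in low-Lgr5 mice with a median of 5.46 (2.96 ± 0.86 SE, adjusted p = 0.0829). The high-Lgr5 mice were divided, with 7 above every low-Lgr5 mouse and 1 below all of them. Krt71, of the same layer, had a median of 8.18 (5.31 to 10.61) in high-Lgr5 and 5.73 (5.29 to 7.66) in low-Lgr5 mice (1.97 ± 0.59 SE, adjusted p = 0.0974). Gprc5d, a receptor of hair-forming cells, was at 0.86 ± 0.30 (SE, adjusted p = 0.158) and Msx2, a transcription factor of the hair matrix, at 0.23 ± 0.18 (SE, adjusted p = 0.618).

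Single mice decided the hair calls. Without the high-Lgr5 mouse 27, 16 of the 45 hair genes passed, without the high-Lgr5 mouse 29 there were 8, without the high-Lgr5 mouse 31 there were 3 and without the low-Lgr5 mouse 14 there were 10. Without each of the other 20 mice 0 passed. With Lgr5 as a continuous predictor over 37 mice 17 of 45 passed.

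**Figure D4:**
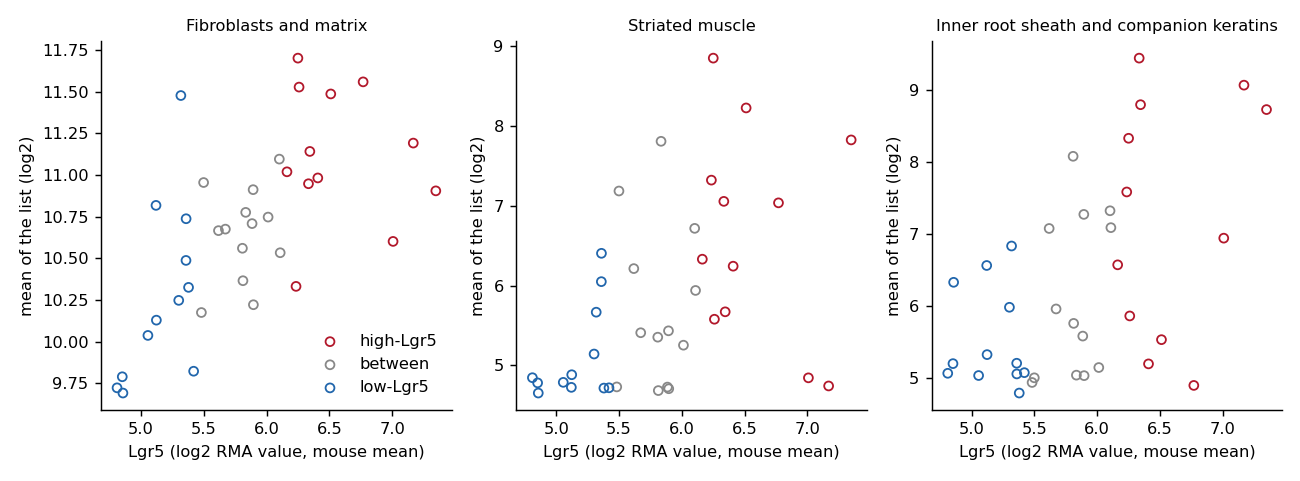
Mean log2 value of 3 gene lists (vertical axis) against Lgr5 (horizontal axis) in 37 mice, 1 circle a mouse, colored by place in the ranking. The fibroblast mean has a higher median at the high end (11.08) than at the low end (10.19), but the ends overlap. It does not climb steadily within the high-Lgr5 mice, and 1 low-Lgr5 mouse is at 11.48. The muscle and root sheath means are spread from low to high among the high-Lgr5 mice.

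Genes of the pathway in which Lgr5 acts had mostly small differences, which varied by list. Wnt receptors had a median of 0.12 (11 of 13 positive), inhibitors 0.27 (8 of 11 positive) and ligands -0.08 (3 of 12 positive). Of the receptors 4 of 13 were higher at an unadjusted p under 0.05 in limma, and of the inhibitors 2 of 11, beside 8.34% of all probesets. Of 66 tested genes in 6 lists (R-spondin receptors and regulators, Wnt ligands, receptors, inhibitors and targets, and the beta-catenin core), 0 passed in limma, 11 had an unadjusted p under 0.05 (beside 13.7% of all probesets), and the median difference was 0.04. In other fits 1 to 3 passed: 3 without the low-Lgr5 mouse 14, 2 without the high-Lgr5 mouse 23, and 1 without the high-Lgr5 mouse 29, without the low-Lgr5 mouse 8 or 32, with sex or coat as a covariate, or with continuous Lgr5. Among the R-spondin genes the sister receptors Lgr4 and Lgr6 differed by 0.14 ± 0.20 and 0.14 ± 0.32 (SE, adjusted p = 0.800 and 0.882). The ligases Znrf3 and Rnf43 were at -0.04 ± 0.10 and -0.03 ± 0.14 (SE, adjusted p = 0.906 and 0.947). Of the ligands Rspo2 was at -0.02 ± 0.06 (SE, adjusted p = 0.902). Rspo1 had the largest difference of its list (0.86) but did not pass and lay near the background. It ran from 3.91 to 6.42 in high-Lgr5 mice with a median of 5.06, and from 3.83 to 4.95 in low-Lgr5 mice with a median of 4.18. Most values, and all low-Lgr5 means, were below the array medians of 5.18 to 5.28. Rspo1 may thus have passed the filter mainly through the other mice. This split was not examined, so its values are given as a description.

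Wnt target genes did not pass either, 0 of 11. Axin2, a feedback inhibitor that reports Wnt signaling in many tissues, ran from 6.37 to 6.95 in high-Lgr5 mice with a median of 6.72, and from 6.07 to 6.67 in low-Lgr5 mice with a median of 6.34 (0.31 ± 0.09 SE, adjusted p = 0.0796). The ends overlapped in 6 of the 12 high-Lgr5 mice. Tnfrsf19 (0.53), Smoc2 (0.53) and Sox4 (0.43) had positive differences with adjusted p of 0.203, 0.402 and 0.350. Lef1 (0.09), Cd44 (0.08), Prom1 (0.12) and Ephb3 (0.00) were close to 0, and so were Myc (-0.06), Ccnd1 (-0.09) and Ascl2 (-0.19), with adjusted p from 0.537 to 0.992. Among receptors and inhibitors the smallest adjusted p belonged to the co-receptor Lrp6 (0.39, adjusted p = 0.0637) and the secreted inhibitor Sfrp1 (0.58, adjusted p = 0.0723).

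Other markers of follicle stem cells did not pass. Of 21 tested, 0 passed in limma and 6 had an unadjusted p under 0.05 (beside 13.7% of all probesets, as for the counts that follow), with a median of 0.27. Their differences ran from -0.13 to 1.72, with 16 positive and 5 negative. With continuous Lgr5 over 37 mice 2 of the 21 passed, and with 15 mice at each end 1. The largest was Krt79, a keratin of the follicle's upper channel rather than of its stem cells, at 1.72 ± 0.48 (SE, limma adjusted p = 0.0723). Sox9 was at 0.41 ± 0.23 (SE, adjusted p = 0.450) and Lrig1 at 0.41 ± 0.20 (SE, adjusted p = 0.382). Of 12 dermal papilla genes 0 passed (2 with papillomas as samples and mouse as a random block) and 5 had an unadjusted p under 0.05, with Alpl at 0.53 ± 0.14 (SE, adjusted p = 0.0554). The hedgehog receptor Ptch1 was at 0.39 ± 0.11 (SE, adjusted p = 0.0807), with 0 of 9 genes of its pathway past the threshold and 2 at an unadjusted p under 0.05.

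Genes of the epidermis itself had small differences. Basal genes had a median of -0.03 (0 of 12 passed, 0 at an unadjusted p under 0.05), differentiated and cornified genes 0.13 (0 of 37 passed, 1 at an unadjusted p under 0.05) and proliferation genes -0.06 (0 of 24 passed, 0 at an unadjusted p under 0.05). Macrophage and Langerhans cell genes had a median of 0.31 (0 of 20 passed, 4 at an unadjusted p under 0.05). Of 14 T and NK cell genes 1 passed, Klrd1, an NK cell receptor chain (0.85 ± 0.18 SE, adjusted p = 0.0180), while Cd3d was at 0.46 ± 0.25 (SE, adjusted p = 0.423).

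The 19 probesets lower in high-Lgr5 mice had mostly small differences, and 9 of them, of 9 genes, lay on chromosome 11. This is 47.4% of the 19, against 8.52% of all tested probesets and 9.30% of the 258 higher ones. The largest was 2610507B11Rik, which ran from 5.18 to 7.81 in high-Lgr5 mice with a median of 6.98, and from 7.35 to 8.72 in low-Lgr5 mice with a median of 8.14 (-1.15 ± 0.22 SE, adjusted p = 0.00905). In 10 of 12 high-Lgr5 mice it was below every low-Lgr5 mouse. The other 8 on chromosome 11 were Synrg (-0.58), Utp6 (-0.48), Atox1 (-0.41), Gosr1 (-0.37), Med1 (-0.37), Dhx33 (-0.36), Prpsap2 (-0.28) and Aatf (-0.27). Their known roles are diverse, among them ribosome assembly for Utp6, copper transport for Atox1 and the Mediator complex for Med1. Elsewhere Heatr1, also of ribosome assembly, was at -0.56 ± 0.14 (SE, adjusted p = 0.0353) and Rnf168, a ubiquitin ligase of DNA repair, at -0.46 ± 0.10 (SE, adjusted p = 0.0224). Of the 15 genes of largest fall, 13 had other tested probesets, and for 1 of the 13, Atxn7l3b, another probeset passed too. Of those 29 other probesets 22 had the same direction.

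Atxn7l3b lies on chromosome 10 with Lgr5, with 5 tested genes between them in RefSeq order. It ran from 8.04 to 8.85 in high-Lgr5 mice with a median of 8.54, and from 8.49 to 9.36 in low-Lgr5 mice with a median of 9.07 (-0.50 ± 0.10 SE, adjusted p = 0.0111). Of the 3 tested genes on each side of Lgr5, 1 passed by 1 of its probesets: Ptprb, an endothelial phosphatase, at 0.66 ± 0.16 (SE, adjusted p = 0.0333) and, by its other probeset, 0.60 ± 0.16 (SE, adjusted p = 0.0664). Its neighbor Tspan8 was at 1.37 ± 0.51 (SE, adjusted p = 0.1995), Thap2 at 0.45 ± 0.21 (SE, adjusted p = 0.334), Zfc3h1 at 0.02 ± 0.09 (SE, adjusted p = 0.941) and 4930422I22Rik at 0.04 ± 0.06 (SE, adjusted p = 0.794). The 5 probesets of Tmem19 ran from -0.24 to 0.33, in both directions, and 0 passed.

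The 10 genes whose levels followed Lgr5 most closely over all 37 mice included several that encode matrix proteins. As a description, Pearson's r was 0.74 for Mfap2, 0.73 for Col1a2, Bgn and Mfap4, 0.72 for Slit3, 0.71 for Mylk, and 0.70 for Col1a1, Bhlhb9, Mmp23 and Pianp. These mice share the array platform and include the mice of both ends. The differences and overlaps given next for genes picked by r therefore follow in part from that choice. Mfap2, a microfibril protein, ran from 7.35 to 8.92 in high-Lgr5 mice with a median of 8.28, and from 7.00 to 7.91 in low-Lgr5 mice with a median of 7.47 (0.71 ± 0.14 SE, adjusted p = 0.0120). In 10 of 12 high-Lgr5 mice it was above every low-Lgr5 mouse, and the same count held for Bgn, the proteoglycan biglycan (1.00 ± 0.17 SE, adjusted p = 0.00508), and for the metalloproteinase Mmp23 (0.91 ± 0.13 SE, adjusted p = 0.00202).

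Ranking by one papilloma and measuring in the other keeps the choice of mice apart from the arrays compared. Among the 31 mice with 2 papillomas, the 10 highest and 10 lowest by papilloma 1 gave 0 calls in papilloma 2 in either direction (889 higher and 417 lower at an unadjusted p under 0.05). The 10 highest and 10 lowest by papilloma 2 gave 1 call, higher, in papilloma 1 (439 and 341 at an unadjusted p under 0.05). The list medians stayed positive, at 0.67 and 0.70 for matrix, 0.70 and 0.65 for striated muscle and 1.37 and 0.77 for root sheath keratins, where the first value is from ranking by papilloma 1. In the same order 15 and 13 of 19 matrix genes had an unadjusted p under 0.05 in limma, beside 1306 and 780 of all 21580 probesets. The counts were 5 and 2 of 23 for muscle and 5 and 0 of 8 for root sheath keratins. For hair keratins they were 8 and 0 of 11, and for keratin-associated proteins 22 and 0 of 26. Mfap4 was at 1.14 and 1.15 (adjusted p = 0.509 and 0.999) and Col1a2 at 0.67 and 0.70 (adjusted p = 0.654 and 0.999).

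Between the papillomas of 1 mouse the Lgr5 gap, with a median of 0.36, was smaller than between the ends, and the list differences are given without a test. The papilloma with more Lgr5 also had the higher matrix list mean in 18 of 31 mice, the higher muscle mean in 20 and the higher mean of keratin-associated proteins in 24, with median differences of 0.16, 0.10 and 0.25. For the 10 mice whose papillomas differed most in Lgr5, by at least 0.62, the counts were 6, 4 and 6 and the median differences 0.60, -0.13 and 0.15.

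**Figure D5:**
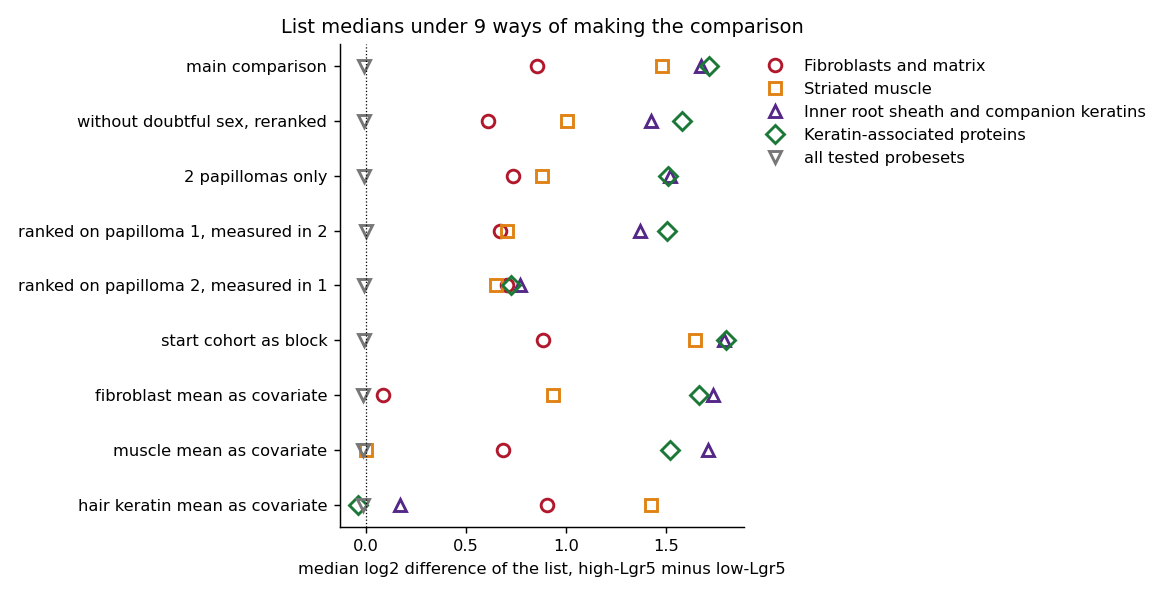
Median log2 difference (horizontal axis, high-Lgr5 minus low-Lgr5) of 4 gene lists and of all tested probesets under 9 ways of making the comparison. Without mice of doubtful sex label the medians remain above 0 (0.61 for matrix, 1.00 for muscle). With its own mean as a covariate a list falls to about 0 by construction (0.08 for matrix, 0.00 for muscle), so these points carry no information. With the hair keratin mean as a covariate the medians are 0.17 for root sheath keratins and -0.04 for keratin-associated proteins, which vary with it.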

How the data were processed

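The authors hybridized RNA of 68 papillomas of 37 mice to an Affymetrix mouse expression array and deposited log2 values made by RMA, named in the submitters' processing notes. RMA corrects background, normalizes arrays by quantiles and summarizes the probes of a probeset, so values near the array medians (5.18 to 5.28) carry little signal and differences there are compressed. The genome build is not given in the sources used here.

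Of 45101 probesets 34945 had 1 gene symbol, 932 several and 9160 none, and 64 were controls. Probesets with 1 symbol above their own array's median in at least 11 of 68 arrays were kept, which left 21580 besides Lgr5. Papillomas of a mouse were averaged. The 12 highest and 12 lowest mice by Lgr5 were compared with limma 3.58.1 (R 4.3.3) with Benjamini-Hochberg adjustment over all tested probesets, traits with Fisher's exact test or 100000 permutations. A list has 1 probeset per gene, that of highest mean. Genes named were the 15 of largest difference in each direction past the threshold (the probeset of smallest p), the 10 most like Lgr5, 3 tested neighbors on each side, Krt71, Krt25, Msx2 and Gprc5d, R-spondin genes and Wnt targets, and up to 4 per list; others were added after their values were seen. The members, lists and tests were chosen with earlier results of these data known. Alternatives covered the filter, the number of mice at each end, covariates, the start cohort as a block, the papilloma used for ranking, array centring, the prior variance and leaving out mice. On simulated data for 12 against 12 mice limma recovered 35 of 67 changes of 0.5, 59 of 67 changes of 1 and 66 of 66 changes of 2 on the log2 scale, with 13 false among 173 calls. The simulated noise was independent between probesets, so genes that vary together across mice were not represented. These rates need not hold for the real data. Chromosomes and promoters came from RefSeq tables for GRCm38.p6, and Lgr5 has no promoter entry there. Tests outside limma ran in scipy 1.17.1 under Python 3.11.15 (numpy 2.4.6, pandas 2.3.3), and plots in matplotlib 3.10.9.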

Additional observations from a re-analysis of the deposited data

How the results depend on the processing

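The number of probesets past the threshold depended on the processing. Of 43 named genes, the 39 that passed changed direction under 0 of 22 alternatives and under no omission of 1 mouse. Among named genes that did not pass there were 2 changes of direction. The 39 were picked by their difference or their likeness to Lgr5 in these same mice. Most alternatives reused that ranking, so their kept direction says little. Beside 258 higher and 19 lower, the counts were 88 and 10 with 9 mice at each end, 86 and 7 with start cohort as a block, 132 and 5 with susceptibility class as a covariate, 74 and 3 with the hair keratin mean as a covariate, and 0 and 0 with the striated muscle mean. Ranking by papilloma 1 gave 0 and 0, ranking by papilloma 2 gave 1 and 0, and leaving out mice of doubtful sex label gave 0 and 0. The following 4 alternatives were chosen after seeing the data: 0 and 0 with the fibroblast mean as a covariate, 0 and 0 without mice of doubtful sex with the ranking kept, 113 and 15 with mice of 2 papillomas only, and 95 and 2 without the high-Lgr5 mice that have 1 papilloma. Higher and lower counts were 255 and 33 without a filter, 222 and 7 with 15 mice at each end and 338 and 34 with continuous Lgr5. They were 202 and 11 with the 3' to 5' ratio and 241 and 32 with centred arrays. Smaller ends have fewer samples; for the other changes the cause was not tested. Leaving out any 1 mouse gave 159 to 547 higher and 6 to 67 lower, and 22 of the 39 named genes passed under every such omission, Col1a1, Col1a2, Mfap4, Lpl, Car3 and 2610507B11Rik among them; Zic1, also counted, lay near the background. Traits did not pass under any ranking tried (9, 12 or 15 mice at each end, or without mice of doubtful sex label). No paired analysis was possible because no mouse lies in both ends; blocking on start cohort and comparing papillomas within a mouse were possible and are given. Precision is limited by 12 mice an end, and Lgr5 itself was above the array median in 13 of 24 arrays of low-Lgr5 mice.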
